A study of Mus musculus with 34 samples.

Results

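The contrast described here set wild type mouse macrophages that had received lipopolysaccharide (LPS) alone for 180 min against wild type macrophages that had received it alone for 45 min. It comprised 4 of the 34 arrays of the series, 2 at each time, which were chosen from their titles and from no measured value. The cells were bone-marrow-derived macrophages, grown from marrow for 7 days in CSF-1, and LPS was given at 100 ng/ml. All 4 arrays carried stimulated cells of 1 genotype and 1 named culture, so the contrast is a change between 2 stages of the response and has no unstimulated side. Neither the labels nor the titles say how many mice stood behind the replicates, which the titles call biological; p-values therefore measure the spread between these arrays. The other arms used below were IL-10-/- macrophages with LPS alone (2 arrays at each time), wild type macrophages with LPS and IL-10 at 10 ng/ml (2 at each time), and IL-6-/- macrophages with LPS alone (1 at each time). The 4 resting arrays (time 0) give background levels in sentences that say so. Their labels name L-cell conditioned medium as the source of CSF-1 and give no genotype, and they entered the tests of the contrast only through the estimate of the spread, which all groups share. Another 2 arrays were in no group, 1 because its title lacks a genotype and 1 because its title and its treatment protocol name different times.

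LPS is sensed by TLR4 together with CD14 and MD-2. The receptor signals through the adaptor MyD88, which activates NF-kappaB and the MAP kinases within minutes, and through the adaptor TRIF, which activates IRF3 and the synthesis of interferon beta. Primary response genes are transcribed from factors already present in the cell, and many of the first ones carry transcripts that are quickly destroyed. Secondary response genes need new protein, such as secreted interferon that acts back on the cell through JAK kinases and STAT factors, or newly made transcription factors. IL-10 is made by the macrophages themselves and restrains the response through STAT3. A comparison of 180 with 45 min therefore sets the late against the early wave.

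The values are MAS5 signals, the summary brightness of a probe set on an Affymetrix expression array, deposited on a linear scale and scaled by the authors so that the trimmed mean of each array is near 500. Tests were made with limma on log2 of the signal plus 50, with 1 mean per group over all 16 groups. A gene is called when its adjusted p (Benjamini-Hochberg over 8224 probe sets) is under 0.05, and fold changes are ratios of signal plus 50. Log2 changes are 180 min minus 45 min throughout and carry their standard error. The replicate arrays correlated at 0.9321 at 45 min and 0.9421 at 180 min over the probe sets tested, against 0.8422 to 0.8577 between arrays of different times. The median signal was 210.6 on both 45 min arrays and 178.5 and 187.7 on the 180 min arrays, and the median log2 change of all 6070 genes tested was -0.15. The labels' description field speaks of embryos, but all 10 macrophage markers on the array had a mean signal above 200 at both times, among them Csf1r, Cd14, Cd68 and Lyz2. The summed signal of those markers was 164130 to 188679 at 45 min and 148810 to 163271 at 180 min. In a bulk culture, fewer cells of a type and less RNA per cell cannot be told apart.

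Between 45 and 180 min the macrophages exchanged 1 set of transcripts for another. The transcription factor genes Fos, Egr1, Nr4a1 and Jun, the kinase gene Sgk1, the chemokine receptor gene Cxcr4 and the mRNA decay factor gene Zfp36l2 fell. The chemokine genes Ccl5 and Cxcl10, the acute phase genes Saa3 and Lcn2, the enzyme genes Acod1, Ptges and Mmp13, and interferon-stimulated genes such as Ifit1 and Isg15 rose. Tnf and Cxcl2, both already high at 45 min, were not called in either direction.

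Of the 8224 probe sets tested, 1143 were called (13.9%), with 557 higher and 586 lower at 180 min. In genes, 436 rose (7.18% of those tested) and 488 fell (8.04%). Counts of calls in the gene lists below are to be read beside these shares. The lists and their members were chosen with earlier results of these data known, so their counts and medians are a description. Changes of at least 2-fold numbered 322 among the genes that rose and 302 among those that fell, and at least 4-fold 117 and 53. The called probe sets numbered 806 without replicate 1 at 180 min, 739 without replicate 2 at 180 min, 728 without replicate 1 at 45 min and 753 without replicate 2 at 45 min. In those 4 fits the lower calls numbered 425, 349, 350 and 328 and the higher calls 381, 390, 378 and 425. The 4 arrays fitted alone gave 439 higher and 335 lower, and quantile normalization 604 higher and 540 lower. With the resting arrays left out of the fit, 1494 probe sets were called, 689 higher and 805 lower. Both the number of calls and which direction held more of them thus depended on these choices. In simulated data with these group sizes, 89 of 100 probe sets changed by log2 2 and 35 of 100 changed by log2 1 were recovered. Changes of log2 1 were thus often missed there, and 12 unchanged probe sets were called. Fewer of the 8224 probe sets were changed in the simulation than were called in the real data.

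**Figure D1:**
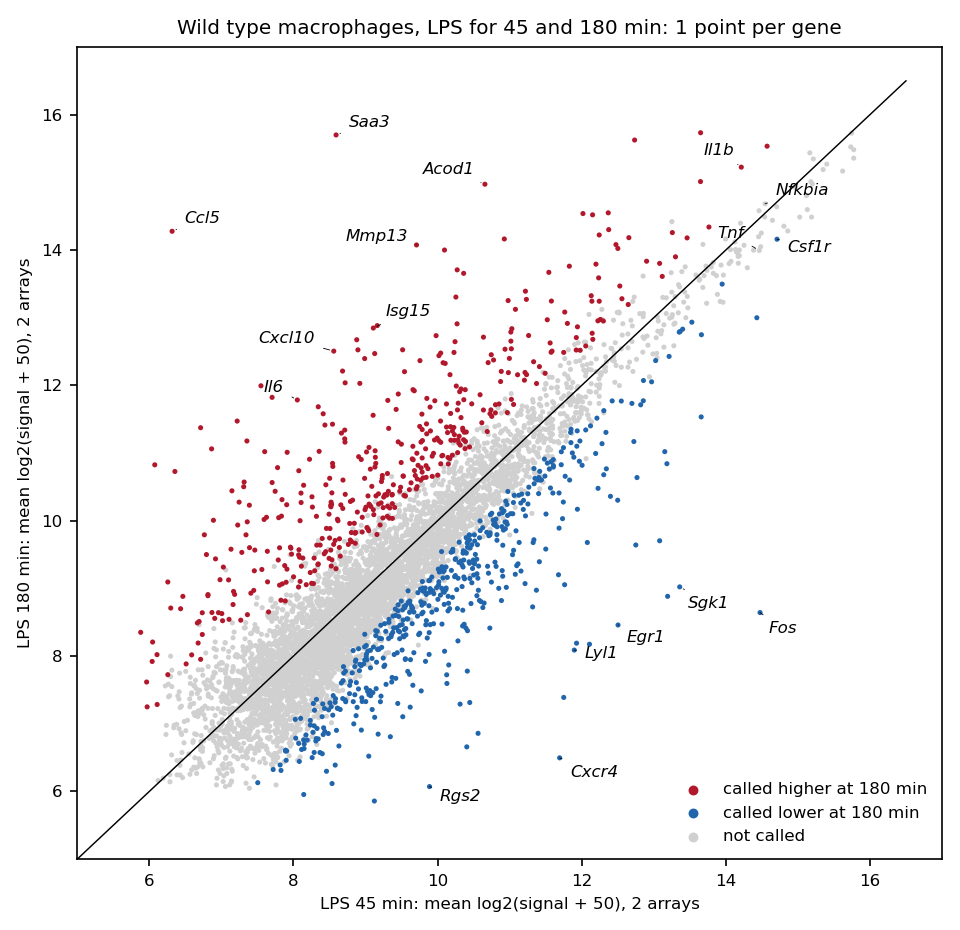
Each point is a gene, placed by its mean log2(signal + 50) over 2 arrays at 45 min (horizontal) and 2 arrays at 180 min (vertical); the line marks equal values, red points were called higher at 180 min and blue points lower. The 436 red genes lie above the line and the 488 blue genes below it, with Ccl5 and Saa3 farthest above and Fos and Cxcr4 farthest below.

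With 50 added to the signal the largest fall was that of Fos, which encodes a subunit of the AP-1 transcription factor; with 10 added Cxcr4 fell further (-6.03, against -5.98 for Fos). Its signal was 21779 and 23697 on the 45 min arrays and 300.0 and 406 on the 180 min arrays, against 793 to 1844 on the 4 resting arrays. Fos thus stood above every resting array at 45 min and below every one at 180 min. The change was -5.83 ± 0.25 (adjusted p = 3.02e-14). Jun, which encodes another AP-1 subunit, went from 1182 and 1262 to 192 and 51.4 (-3.02 ± 0.38, adjusted p = 2.13e-06), with resting signals of 168 to 486. Egr1, a zinc finger factor gene induced by MAP kinase signalling, gave 5924 and 5599 at 45 min and 208 and 431 at 180 min, a change of -4.05 ± 0.33. Its 180 min signals overlapped the resting values of 260.1 to 601. The orphan nuclear receptor gene Nr4a1 went from 4414 and 4316 to 218 and 261 (-3.93 ± 0.27), and the 180 min signals overlapped the resting ones of 197 to 365. Klf4, a Krüppel-like factor gene, fell from 1059 and 1082 to 117 and 174 (-2.53, adjusted p = 1.13e-07).

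As a group, 14 of the 31 immediate early transcription factor genes tested fell, 1 rose and 16 did not pass, and the list's median was -0.70 beside -0.15 over all genes tested. At 45 min 21 of the 31 had both arrays above all 4 resting arrays, and at 180 min 13 did. Over all genes tested, 16.8% did at 45 min and 17.6% at 180 min, and the resting cultures differ in the ways given above. The member that rose was Cebpd, which encodes a C/EBP factor of the acute phase response. Its signal was 1202 and 1140.2 at 45 min, overlapping the resting arrays, and 9464 and 10719 at 180 min (3.05 ± 0.22, adjusted p = 3.89e-10). Its 180 min arrays stood above every resting array.

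Other transcription regulators fell too. Among 31 genes of transcription regulators with short-lived transcripts, 11 fell, 5 rose and 15 did not pass (median -0.50); without replicate 1 at 45 min 2 rather than 5 rose. Id3, which encodes an inhibitor of basic helix-loop-helix factors, fell from 7040.0 and 6650.3 to 815 and 688 (-3.11 ± 0.33). Tgif1, a repressor gene of the TGF-beta pathway, fell from 5798 and 5684 to 1231 and 1195 (-2.20). The haematopoietic factor gene Lyl1 fell from 3348 and 4228 to 164 and 296 (-3.81 ± 0.26, adjusted p = 1.43e-10). Its 45 min signals overlapped the resting values of 3923 to 6874, although the resting cultures differ in the ways given above. Hhex, a homeobox gene, dropped from 552 and 652 to 64.9 and 59.3 (-2.54).

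The list of MAP kinase phosphatases and signal brakes, which also holds the kinase gene Sgk1, split. Of 17 MAP kinase phosphatase and brake genes tested, 4 rose, 5 fell and 8 did not pass (median -0.39); the count of falls was 3 without replicate 1 at 180 min and 3 without replicate 2 at 45 min. Sgk1, a kinase gene induced by serum, glucocorticoids and stress, fell from 10288 and 10643 to 410.0 and 538 (-4.34 ± 0.18, adjusted p = 3.02e-14), with resting signals of 1068 to 1258 between the 2 stages. Rgs2, which encodes a protein that shortens G-protein signals, gave 878 and 917 at 45 min, 5.2 and 31.9 at 180 min and 947 to 1390.3 at rest (-3.82 ± 0.30). Dusp1, the gene of a phosphatase that inactivates p38 and JNK, fell from 21756 and 22306 to 8054 and 8223 (-1.43 ± 0.26, adjusted p = 0.000377), a level still above every resting array. Dusp16, the gene of a JNK phosphatase, rose instead, from 202 and 181 to 2703 and 1496 (3.10 ± 0.31). Another tested probe set of Dusp16 gave 0.96 (limma, adjusted p = 0.209). Ptpn1, which encodes the tyrosine phosphatase PTP1B that acts on JAK kinases, rose from 1637 and 2365 to 10386 and 9084 (2.27, adjusted p = 8.79e-07).

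Of 12 mRNA decay factor genes tested, 4 fell, 1 rose and 7 did not pass (median -0.48); 0 rose without any 1 of the 4 arrays. Zfp36l2 and Zfp36l1 encode relatives of tristetraprolin that bind AU-rich elements and recruit the deadenylation machinery. Zfp36l2 fell from 8702 and 9959.6 to 319 and 554 (-4.31 ± 0.26, adjusted p = 1.54e-11), below the resting arrays, which spanned 4101 to 8096. Other tested probe sets of Zfp36l2 gave -1.50 and -0.99 (limma, adjusted p = 0.169 and 0.0528). Zfp36l1 fell from 8766 and 9753 to 1769.9 and 1802 (-2.34, adjusted p = 2.37e-07). Btg2, an antiproliferative gene whose product stimulates deadenylation, fell from 11434 and 7174 to 2269.9 and 1810.1 (-2.13 ± 0.21).

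**Figure D2:**
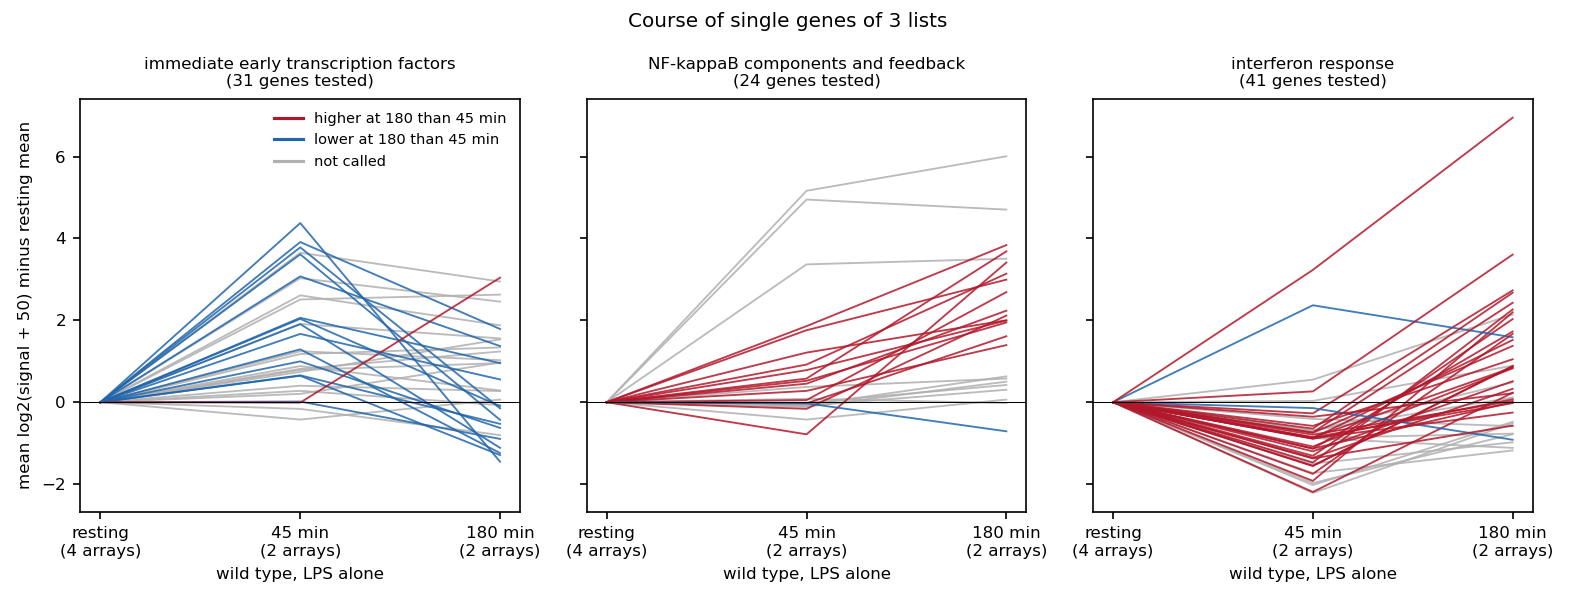
Lines join the means of log2(signal + 50) at rest (4 arrays), 45 min and 180 min of LPS alone (2 arrays each), shown as the difference from the resting mean, for each gene tested of 3 lists; colour gives the call between 45 and 180 min. Most immediate early genes called lower peak at 45 min, NF-kappaB genes called higher climb at 180 min, and many interferon response genes lie below the resting mean at 45 min. The resting cultures differ in the ways given in the text.

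Among surface receptor genes, Cxcr4 and Gpr65 were 2 of the 12 largest falls. Cxcr4, the receptor gene for the chemokine CXCL12, gave 3335 and 3191 at 45 min and 37.5 and 43.1 at 180 min (-5.20 ± 0.32, adjusted p = 2.52e-11); its resting signals ran from 2062 to 3205, and the 180 min arrays lay below all of them. Gpr65, the gene of an acid-sensing receptor, went from 3939.5 and 2926 to 122 and 114 (-4.36 ± 0.37). C3ar1, the receptor gene for complement fragment C3a, went from 5213 and 5493 to 1299.6 and 1231 (-2.04, adjusted p = 3.53e-08). In the list of chemokine and other G-protein coupled receptors, 4 of 21 genes fell, 4 rose and 13 did not pass (median -0.17). The risers included Fpr2, a formyl peptide receptor gene (96.1 and 84.9 to 868 and 588), Ptafr, the platelet-activating factor receptor gene (346 and 560.5 to 1814 and 1922), and P2ry2, a receptor gene for extracellular ATP (206 and 37.6 to 854 and 1012). Transcripts of the receptors for CXCL12 and C3a were thus lower, and those for formyl peptides and platelet-activating factor higher. The falls numbered 7 with the resting arrays left out of the fit.

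The remaining large falls were Cerk, Apobec1 and Sesn1. Cerk, the ceramide kinase gene, went from 1374 and 1241 to 94.7 and 20.5 (-3.75 ± 0.37). Apobec1, which encodes a cytidine deaminase that edits RNA, went from 3174 and 4661 to 186 and 312 (-3.74 ± 0.23, adjusted p = 1.73e-11). Sesn1, a stress gene whose product restrains mTORC1, was at 1546 and 1382 and then 24.6 and 130.4 (-3.70 ± 0.40), against resting signals of 3028 to 5172. All 3 were lower on both 180 min arrays than on any 45 min or resting array, although the resting cultures differ in the ways given above.

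Over all genes called lower, 106 of 488 (21.7%) had both 45 min arrays above every resting array, and 400 (82%) had both 180 min arrays below every resting array. The same shares over all genes tested were 16.8% and 26.1%. Of the genes called higher, 364 of 436 (83.5%) stood above every resting array at 180 min, beside 17.6% of all genes tested. Among those same 436, 76 (17.4%) had lain below every resting array at 45 min, beside 16% of all genes. The called genes were picked from the same 4 arrays, so these shares are a description.

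**Figure D3:**
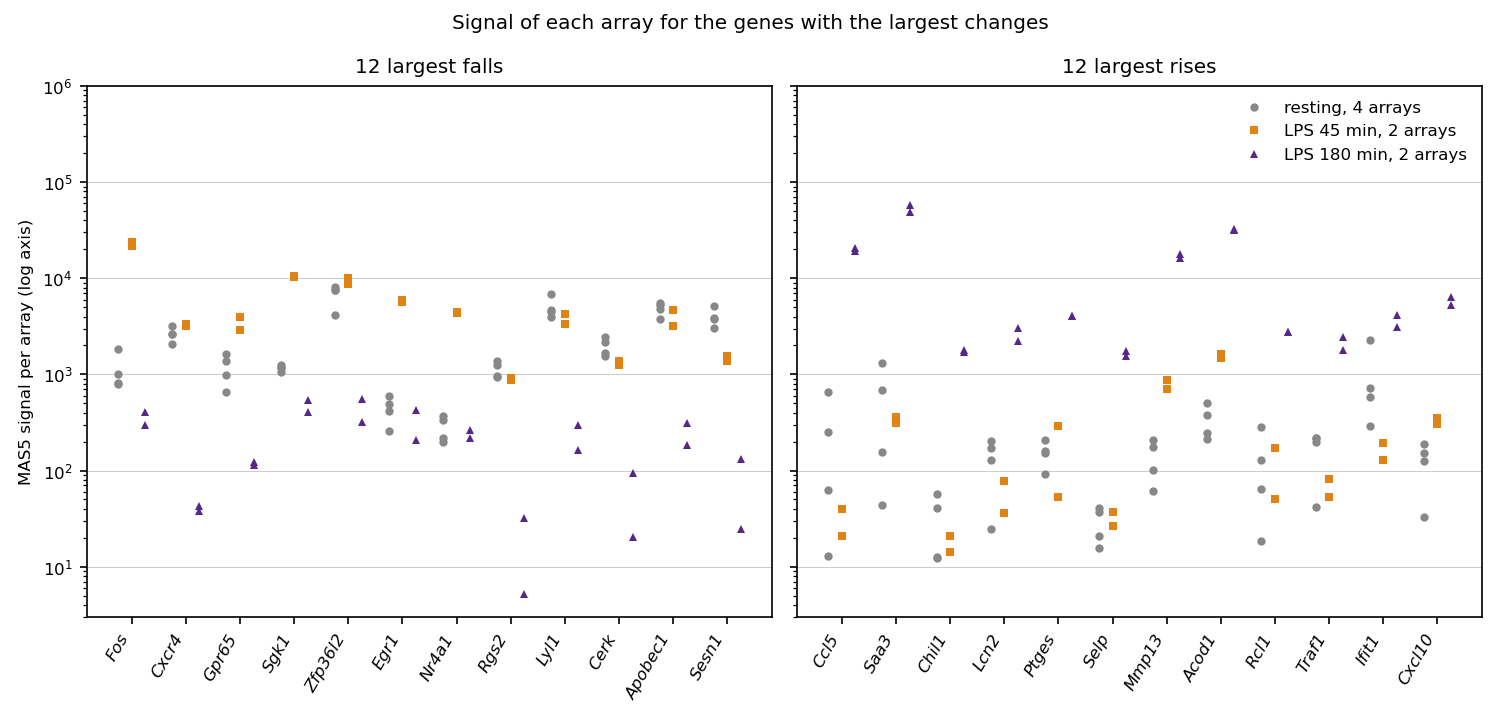
MAS5 signal of every array (log axis) for the 12 genes with the largest falls (left) and the 12 with the largest rises (right): grey circles are 4 resting arrays, orange squares 2 arrays at 45 min and purple triangles 2 arrays at 180 min. The 24 genes were chosen among those whose 45 and 180 min arrays do not overlap. Fos, Sgk1, Egr1 and Nr4a1 stand above rest only at 45 min.

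Several chemokine and cytokine genes rose, and none of those tested was called lower. Of 20 chemokine genes tested, 7 rose and 13 did not pass (median 0.25), and of 19 inflammatory cytokine genes 8 rose and 11 did not pass (median 0.72). With the resting arrays left out of the fit, 3 of the 19 cytokine genes were called lower. Ccl5, the gene of the chemokine RANTES that draws T cells and monocytes, showed the largest rise of any gene with 50 added to the signal, from 39.9 and 20.6 to 19009 and 20629.7 (7.96 ± 0.62, adjusted p = 1.06e-09). Both 45 min signals were near the floor of the array, so the size of this change depends on the constant added to the signal; with 200 added it was 6.44, below the 6.64 of Saa3. Cxcl10, an interferon-inducible chemokine gene for CXCR3-bearing cells, rose from 348 and 308 to 5233 and 6357 (3.95 ± 0.39, adjusted p = 5.45e-08). Ccl3 and Ccl4 encode macrophage inflammatory proteins and were already clear at 45 min. Ccl3 rose from 4267 and 3929.6 to 22756 and 24791 (2.52 ± 0.19), and Ccl4 from 1793 and 2004 to 15390.0 and 21749 (3.24 ± 0.57). Cxcl5, a neutrophil chemokine gene, rose from 98.8 and 131 to 974 and 950.2 (2.62).

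Some cytokine genes were near their full level at 45 min and others started low. Tnf was high at both times, with 21922 and 23219 at 45 min and 15153 and 17418 at 180 min, and its change of -0.47 ± 0.39 did not pass (adjusted p = 0.502); with the resting arrays left out of the fit the same change passed as a fall (adjusted p = 0.0141). Cxcl2, another gene of the first wave, was likewise high at both times, at 17345 and 19596 and then 14493 and 16431 (-0.26 ± 0.33, adjusted p = 0.696). Il1b, which encodes interleukin-1 beta, rose from 21381 and 16816 to 38468 and 38001 (1.01 ± 0.25, adjusted p = 0.00664), a call lost without replicate 2 at 45 min (0.84, adjusted p = 0.0939). Il1a, its partner gene, rose from 2674 and 3223 to 15264 and 11048 (2.13 ± 0.28). Il6, the gene of the pleiotropic interleukin-6, gave 209 and 222 at 45 min and 4568 and 2645 at 180 min (3.73 ± 0.53, adjusted p = 1.5e-05), with resting signals of 4 to 224. Il12b, the gene of a chain that IL-12 shares with IL-23, rose from 221 and 43.6 to 1529 and 1416 (3.26 ± 0.46, adjusted p = 1.25e-05). Il15, a growth factor gene for NK and memory T cells, rose from 116 and 95.7 to 867 and 548 (2.25 ± 0.35).

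An antagonist gene rose as well. Il1rn, which encodes the IL-1 receptor antagonist, went from 1019.6 and 1069.7 to 15694 and 16996 (3.90 ± 0.17, adjusted p = 4.53e-14). Il10 itself had signals of 2412 and 2634 at 45 min and 3265 and 2701 at 180 min, and its change of 0.23 ± 0.26 did not pass (adjusted p = 0.642).

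Most inflammatory enzyme and lipid mediator genes rose. Of 36 genes tested, 24 rose, 3 fell and 9 did not pass (median 1.71); the falls numbered 1 without replicate 1 at 180 min and 1 without replicate 2 at 45 min. Saa3, an acute phase gene expressed by macrophages, rose from 364 and 309.5 to 48639.5 and 58170.1 (7.11 ± 0.65, adjusted p = 1.81e-08). Lcn2, the gene of a protein that binds bacterial siderophores, rose from 36.2 and 77.4 to 2224 and 3048 (4.66 ± 0.39). Another tested probe set of Lcn2 gave 0.12 (limma, adjusted p = 0.853). Lcn2 is also a neutrophil marker. Of the 12 neutrophil markers on the array, Mpo, Ctsg, Prtn3, Ltf and Ngp had mean signals under 200 at both times. Of these markers 2 of the 9 tested rose (Lcn2 and S100a8; 1 without replicate 1 at either time), and S100a9 and Mmp8 were also under 200 at both times. The summed signal of the 12 was 2382 to 3187 at 45 min and 5058 to 5537 at 180 min, of which Lcn2 alone gave 2224 and 3048.

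Acod1 makes itaconate, a metabolite that inhibits succinate dehydrogenase and bacterial isocitrate lyase. Its signal went from 1495 and 1637 to 31971 and 32223 (4.32 ± 0.27, adjusted p = 2.19e-11). Ptges, the inducible prostaglandin E synthase gene, rose from 52.7 and 291 to 4034 and 4022 (4.45 ± 0.53), and Mmp13, a collagenase gene, from 871 and 709 to 18091 and 16364 (4.37 ± 0.30). Ch25h, whose product makes 25-hydroxycholesterol, an antiviral oxysterol, rose from 279.9 and 314 to 2535 and 2829 (2.98, adjusted p = 4.36e-08). Sat1, a polyamine-degrading enzyme gene, was among the 3 that fell (4962 and 5327 to 2008 and 1426, -1.57 ± 0.26). Outside the lists, the largest rises were Chil1, a chitinase-like gene (14.3 and 20.7 to 1722 and 1809.6), Selp, the P-selectin gene (26.7 and 37.3 to 1552 and 1744), and Rcl1, a ribosome biogenesis gene (50.8 and 170.1 to 2794 and 2790.0). The 45 min signals of these 3 genes were low, so their sizes also depend on the added constant.

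In the NF-kappaB list, which holds subunits, inhibitors and feedback proteins, 13 of 24 genes rose, 1 fell and 10 did not pass (median 0.98). Nfkbia, which encodes the inhibitor IkappaB alpha and is resynthesised as soon as NF-kappaB is active, was high at both times (23769 and 23933 at 45 min, 25038 and 27543 at 180 min) and its change of 0.14 ± 0.29 did not pass (adjusted p = 0.823). Traf1, an adaptor gene of TNF receptors, went from 53.4 and 81.2 to 1793 and 2428 (4.20 ± 0.45, adjusted p = 2.37e-07). Map3k8, the gene of the kinase Tpl2 that activates ERK, went from 488 and 386 to 4389 and 3887 (3.11 ± 0.29). Another tested probe set of Map3k8 gave -0.30 (limma, adjusted p = 0.79). Tnip1, whose product works with A20 to limit NF-kappaB, rose from 1269 and 1107 to 7675 and 7612 (2.64 ± 0.20, adjusted p = 7.68e-10). Ikbke, an IKK-related kinase gene, and Peli1, a ubiquitin ligase gene, rose by log2 2.28 and 2.22. Irak1, a kinase gene of the MyD88 complex, was the 1 that fell (-0.68 ± 0.23, adjusted p = 0.048), a call lost without replicate 1 at 180 min (-0.52, adjusted p = 0.303), replicate 2 at 180 min (-0.84, 0.0637) or replicate 2 at 45 min (-0.49, 0.318).

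Most interferon response genes rose as well. Of 41 genes tested, 27 rose, 2 fell and 12 did not pass, and the median was 1.63 beside -0.15 over all genes; the rises numbered 16 without replicate 1 and 17 without replicate 2 at 180 min, and the falls 0 or 1 without any 1 of the 4 arrays. These genes respond to type I interferon through the ISGF3 complex or, in part, to IRF3 directly. At 45 min 20 of the 41 lay below all 4 resting arrays and 2 above them. At 180 min 15 lay above and 6 below. Over all genes tested, 16% lay below and 16.8% above at 45 min, and 17.6% above and 26.1% below at 180 min. Other lists lay low at 45 min too, with 28 of 54 respiratory chain and 10 of 23 cytosolic ribosomal protein genes below all resting arrays. The resting cultures differ in the ways given above. Ifit1, which encodes a protein that binds uncapped viral RNA, gave 191 and 130.0 at 45 min, 4119.9 and 3097 at 180 min and 292 to 2299.5 at rest (4.12 ± 0.56, adjusted p = 7.54e-06). Isg15, the gene of a ubiquitin-like modifier, gave 374 and 669 and then 7231 and 7408 (3.74 ± 0.46, adjusted p = 2e-06), with a wide resting range of 641 to 4207. Usp18, whose product removes ISG15 and dampens the interferon receptor, rose from 149 and 139.5 to 1908 and 2155 (3.42 ± 0.54), and its resting signals spanned 192 to 1880.5. The resting signals of these 3 genes thus ran over a wide range.

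Gbp3, a guanylate-binding protein gene of cell-autonomous defence, rose from 685 and 375 to 6708 and 4712 (3.34 ± 0.43, adjusted p = 3.01e-06). Ifi202b, an interferon-inducible DNA-binding protein gene, rose from 594 and 459.5 to 7379.9 and 7628 (3.72 ± 0.30). Irf1, which encodes an interferon regulatory factor that is itself an early NF-kappaB target, fell instead, from 6591 and 5363 to 3846 and 3072 (-0.78 ± 0.20, adjusted p = 0.00946). That call was lost without replicate 2 at 180 min (-0.62, adjusted p = 0.127) or replicate 1 at 45 min (-0.63, 0.132).

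The interferon-stimulated response element (ISRE) is the site bound by ISGF3 and IRF factors, and its core is GAAA, any 2 bases, GAAA. The stretches below show it in capitals, on either strand, ahead of the start of 5 genes that rose; they are shown because many interferon response genes rose. They are RefSeq sequence of GRCm38.p6, 80 bases each, read in the direction of the gene. Ifit1 (chr19:34640759-34640838, plus strand) and Gbp3 (chr3:142559964-142560043, plus strand) hold the core on the opposite strand, so that it reads TTTC, any 2 bases, TTTC. Isg15 (chr4:156200846-156200925, minus strand), Socs1 (chr16:10785572-10785651, minus strand) and Cxcl10 (chr5:92349058-92349137, minus strand) hold it on their own strand, and in Isg15, Gbp3 and Socs1 the matches overlap each other.
Ifit1: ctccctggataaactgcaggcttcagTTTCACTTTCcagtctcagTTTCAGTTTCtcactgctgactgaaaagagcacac
Isg15: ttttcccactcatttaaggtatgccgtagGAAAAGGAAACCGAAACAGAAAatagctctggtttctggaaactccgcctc
Gbp3: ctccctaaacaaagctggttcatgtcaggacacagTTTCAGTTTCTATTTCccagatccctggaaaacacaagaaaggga
Socs1: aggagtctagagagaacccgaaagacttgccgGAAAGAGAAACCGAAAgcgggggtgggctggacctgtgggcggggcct
Cxcl10: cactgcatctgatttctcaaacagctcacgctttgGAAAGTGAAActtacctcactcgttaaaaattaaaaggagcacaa

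In Ifit1 the 2 cores lie 104 to 95 and 85 to 76 bases before the listed start, in Isg15 the 3 overlapping cores lie between 78 and 57, and in Cxcl10 the single core lies 213 to 204 before it. An ISRE core was present within 250 bases before the start in 10 of 35 interferon response genes with a promoter in the table (28.6%). The share was 3.04% of all 27025 promoters (821) and 2.74% of the 4887 promoters of genes tested (134). Among genes called higher it was 5.11% (19 of 372), among those called higher by at least 4-fold 12.5% (12 of 96), among genes called lower 1.97% (8 of 407), and among those called lower by at least 4-fold 6.67% (3 of 45). The letters are a description of these windows and say nothing of which factor was bound.

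Other motifs were searched in the same windows, and the differences between shares were not tested. The cyclic AMP response element TGACGTCA was found, on either strand, in 3.69% of the promoters of genes called lower (15 of 407), 2.15% of those called higher (8 of 372), 2.56% of those tested and 1.62% of all. The AP-1 site TGANTCA, which does not match TGACGTCA, was in 2.7% of the promoters of genes called lower (11 of 407), 8.6% of those called higher (32 of 372), 16.7% of those called higher by at least 4-fold (16 of 96) and 4.44% of those called lower by at least 4-fold (2 of 45). The shares were 5.3% of genes tested and 6.87% of all promoters, and 31% (9 of 29) in the list of inflammatory enzymes. NF-kappaB sites were about as frequent ahead of genes called higher (9.95%, 37 of 372) as ahead of genes called lower (9.58%, 39 of 407), with 8.82% among genes tested, 7.01% among all promoters and 45% (9 of 20) in the NF-kappaB list. They were in 26.1% (6 of 23) of the immediate early list, 11.5% (11 of 96) of genes called higher by at least 4-fold and 15.6% (7 of 45) of genes called lower by at least 4-fold. The CArG box bound by serum response factor was in 0.269% of the higher, 1.47% of the lower, 1.29% of the tested and 1.4% of all promoters. The genes printed here and above were picked as examples, and some other named genes with the same motifs changed the other way. The cyclic AMP element also lay ahead of Ch25h, which rose by log2 2.98. AP-1 sites lay ahead of Zfp36l1 (-2.34) and C3ar1 (-2.04), an ISRE core ahead of Sgk1 (-4.34), and an NF-kappaB site ahead of Fos (-5.83). The stretches below carry these sites in capitals: an AP-1 site in Mmp13 (chr9:7272434-7272513, plus strand), NF-kappaB sites in Il6 (chr5:30013034-30013113, plus strand) and in a second stretch of Cxcl10 (chr5:92348976-92349055, minus strand), and the cyclic AMP element in 2 genes that fell, Dusp1 (chr17:26508572-26508651, minus strand) and Btg2 (chr1:134079278-134079357, minus strand).
Mmp13: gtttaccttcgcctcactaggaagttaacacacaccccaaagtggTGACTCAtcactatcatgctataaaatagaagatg
Il6: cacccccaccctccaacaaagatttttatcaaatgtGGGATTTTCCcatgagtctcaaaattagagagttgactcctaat
Cxcl10, nearer the start: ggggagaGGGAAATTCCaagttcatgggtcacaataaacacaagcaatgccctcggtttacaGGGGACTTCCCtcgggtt
Dusp1: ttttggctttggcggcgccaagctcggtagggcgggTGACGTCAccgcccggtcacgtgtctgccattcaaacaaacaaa
Btg2: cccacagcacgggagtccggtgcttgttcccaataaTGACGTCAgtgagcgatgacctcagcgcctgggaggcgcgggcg

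Genes of cytokine receptors and of the JAK and STAT pathway rose in part. Of 37 tested, 14 rose, 2 fell and 21 did not pass (median 0.47); 0 or 1 fell without any 1 of the 4 arrays. Jak2, the kinase gene used by interferon gamma and many growth factor receptors, rose from 406 and 319.8 to 5164 and 4263 (3.53 ± 0.21, adjusted p = 1.54e-11). Il4ra, the IL-4 receptor alpha chain gene, rose from 1480.5 and 949 to 13673 and 12978 (3.43 ± 0.18), and Stat5a from 1158 and 1140.2 to 5384 and 6012 (2.26 ± 0.28). Another tested probe set of Il4ra gave 0.52 (limma, adjusted p = 0.467). Among the suppressors of cytokine signalling Socs1 and Socs3 rose, while Socs2 (-0.39) and Socs5 (0.15) did not pass. Socs1, which restrains interferon signals and whose promoter is printed above, went from 423 and 322 to 1506 and 3557 (2.50 ± 0.37). Socs3, which restrains gp130 receptors, was already high at 45 min and went from 9200.2 and 10318 to 18486 and 20649.9 (1.00 ± 0.27, adjusted p = 0.0125). The Socs3 call was lost without replicate 2 at 180 min (0.92, adjusted p = 0.0938) or replicate 1 at 45 min (0.92, 0.101). Csf1r, the CSF-1 receptor gene that marks macrophages, fell from 28075 and 25509 to 17353 and 19197 (-0.55 ± 0.16, adjusted p = 0.0246). It lost its call without any 1 of the 4 arrays (adjusted p 0.0583 to 0.17), and the mean over its probe sets was 0.05.

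Among costimulation and antigen presentation genes 8 of 25 rose, 1 fell and 16 did not pass (median 0.00); 4 or 5 rose when any 1 of the 4 arrays was left out, and 0 fell without replicate 2 at 180 min or without either 45 min array. Cd40, a costimulatory receptor gene, rose from 445 and 398 to 6422 and 6549 (3.80 ± 0.29, adjusted p = 7.01e-10). The adhesion genes Icam1 and Vcam1 rose from 4905 and 5642 to 19556 and 20745 and from 95 and 31.4 to 972 and 719 (1.93 and 3.03). Other tested probe sets of Vcam1 gave 0.98 and 0.45 (limma, adjusted p = 0.0592 and 0.492). Of 17 Toll-like receptor and adaptor genes, 5 rose, 3 fell and 9 did not pass (median 0.20), with 3 rises and 0 falls without replicate 1 at 180 min and the same counts without replicate 2 at 45 min. Clec4e, the gene of the lectin receptor Mincle, Tab2, an adaptor gene of the kinase TAK1, and Myd88 rose by log2 1.55, 1.32 and 1.25.

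Macrophage identity genes were called in 11.8% each way, beside 7.18% higher and 8.04% lower over all genes tested. Of the 34 macrophage identity genes, 4 rose, 4 fell and 26 did neither (median -0.24). With 1 array left out, 1 or 2 of them fell, and 2 rose without replicate 2 at 180 min. Msr1, the class A scavenger receptor gene, and Fcgr2b, the inhibitory Fc receptor gene, rose from 386 and 542 to 6797 and 4192 and from 1338 and 1197 to 12577 and 13137 (3.41 and 3.29). Cebpa, a C/EBP factor gene of myeloid differentiation, fell from 2329.7 and 2719 to 771 and 766 (-1.65 ± 0.30, adjusted p = 0.000305). Its direction was thus opposite to that of Cebpd.

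Glycolysis and hypoxia genes rose in part, with 10 of 24 higher, 0 lower and 14 not passing (median 0.63). Slc2a1, the glucose transporter gene GLUT1, rose from 314 and 245 to 1899 and 2178 (2.67 ± 0.33). Hk2, a hexokinase gene, rose from 907 and 1168 to 4667 and 5605 (2.26 ± 0.24), and Hif1a, the hypoxia-inducible factor gene, from 5488 and 5802 to 15173 and 19654 (1.61 ± 0.18, adjusted p = 2.69e-07). In contrast, 0 of 54 respiratory chain genes rose and 2 fell (median -0.18; 0 fell without replicate 2 at 180 min or replicate 1 at 45 min and 1 without replicate 1 at 180 min), and 0 of 23 cytosolic ribosomal protein genes passed in either direction (median -0.16); both medians were close to the -0.15 of all genes. The constitutive proteasome list had 2 rises in 29 (1 without replicate 2 at 180 min) and a median of 0.31, with Psma6 at 2963 and 1375 and then 8636 and 5706 (1.77).

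Of the heat shock, redox and metallothionein genes 9 of 37 were higher, 0 lower and 28 did not pass (median -0.07), and 5 were higher when the 4 arrays were fitted alone. The metallothionein gene Mt2 rose from 6522 and 7013 to 43750.5 and 58262 (2.89 ± 0.31), Mt1 from 5543 and 4948 to 24162 and 23704 (2.18 ± 0.25), and Sod2, the mitochondrial superoxide dismutase gene, from 1041 and 884 to 6337 and 7225 (2.76 ± 0.26). Of 29 survival and death genes 6 rose, 4 fell and 19 did not pass (median -0.02; 3 rose without replicate 1 at 45 min). Fas, the death receptor gene, and the inflammatory caspase genes Casp4 and Casp1 rose by log2 2.71, 1.73 and 1.71, while Mcl1, a BCL2 family survival gene, fell by log2 0.96.

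Lysosome and phagocytosis genes leaned the other way, with 8 of 39 lower, 1 higher and 30 not passing (median -0.42). That count varied: 3 fell without replicate 2 at 180 min, 5 without either 45 min array, 5 in the 4 arrays alone and 15 after quantile normalization. Hexa, a beta-hexosaminidase gene, fell from 8897 and 10024 to 5604 and 5320.5 (-0.78 ± 0.16), and Npc1, the lysosomal cholesterol exporter gene, from 3476 and 4743 to 1494 and 2064 (-1.19 ± 0.23). In the sterol list 3 of 26 rose and 3 fell, 11.5% each way and near the 7.18% and 8.04% of all genes (1 fell without either 180 min array or without replicate 2 at 45 min). The synthesis genes Hmgcs1 and Idi1 rose by log2 2.45 and 2.30. In the cell cycle list 8.11% rose and 5.41% fell, likewise near the shares of all genes. Of 37 cell cycle genes 3 rose, 2 fell and 32 did not pass (median -0.35, mean -0.17); 1 rose without either 180 min array or without replicate 1 at 45 min, and 1 fell without replicate 2 at either time.

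**Figure D4:**
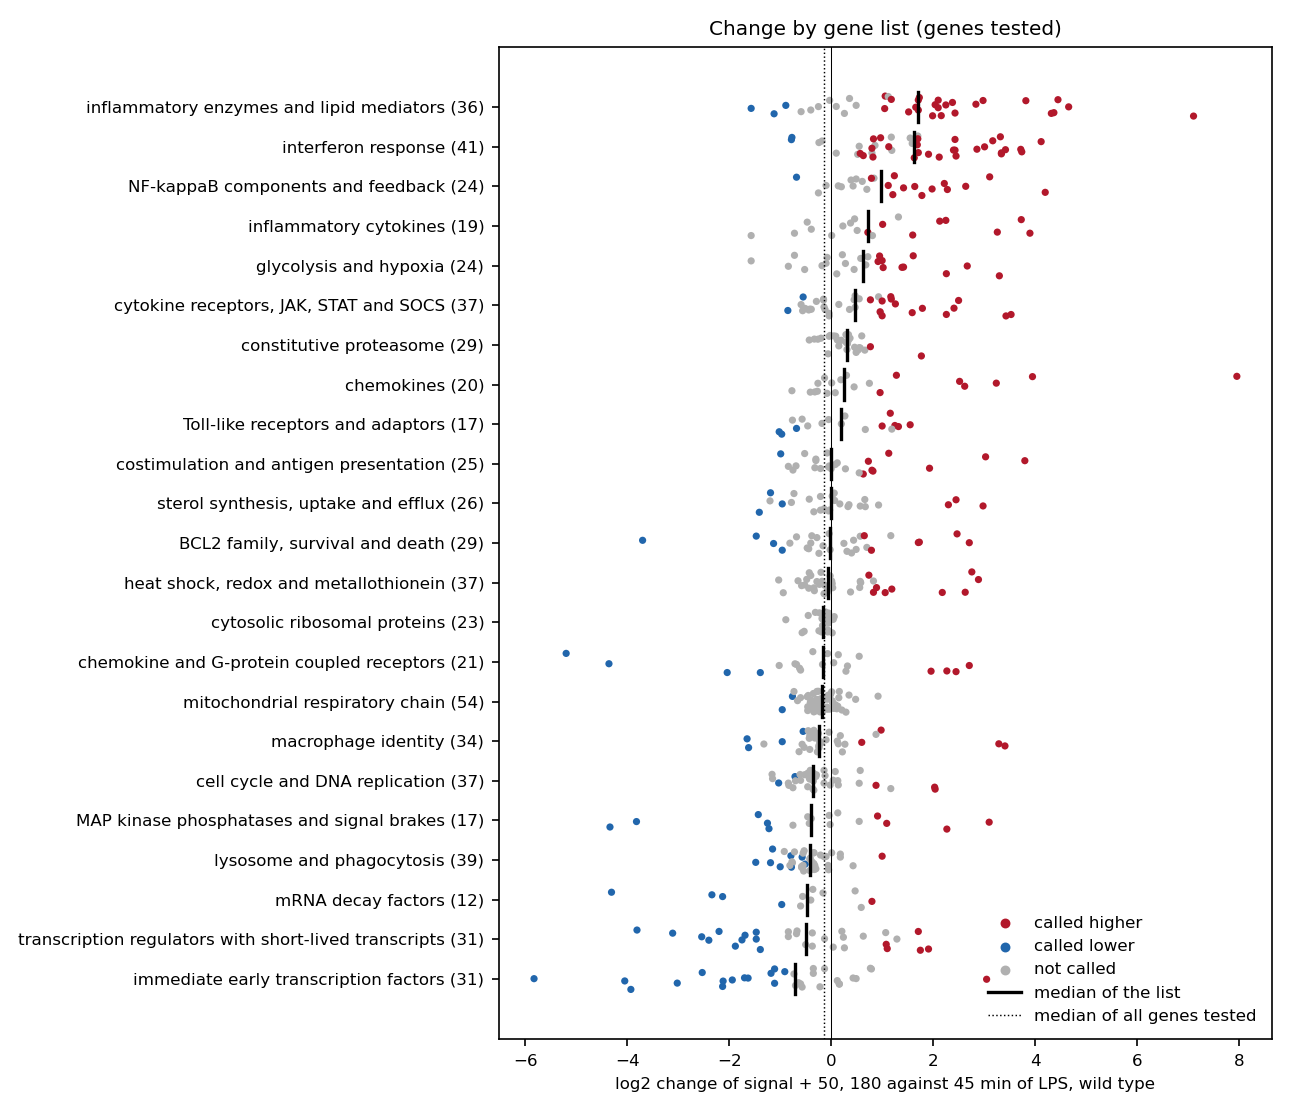
Log2 change from 45 to 180 min of LPS in wild type cells for every tested gene (1 point) of 23 lists, with the number tested in brackets; red points were called higher, blue lower, grey neither, the black bar is the list's median and the dotted line the median of all genes (-0.15). The median runs from -0.70 for immediate early factors to 1.71 for inflammatory enzymes. The lists were chosen with earlier results of these data known.

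Few markers of other cell types were called. Of 13 stromal markers tested, 0 passed (median -0.04), and the summed signal of all 15 on the array was 12738 to 13730 at 45 min and 11737 to 12508 at 180 min, against 1690 to 4522 on the resting arrays. Of 5 lymphocyte markers 1 fell, the immunoglobulin gene Ighm (1348 and 1594 to 383 and 532; not called in the mean of its probe sets, adjusted p = 0.17), with the summed signal of all 10 on the array at 2821 to 3398 and 1680 to 1923; Cd3e, Cd3d, Cd3g and Cd8a were under 200. Of 5 erythroid and mast cell markers 1 rose, the carbonic anhydrase gene Car2 (101 and 124 to 850.0 and 822), and the 11 on the array summed to 2778 to 3017 and 2198 to 2957. Of 7 dendritic cell markers tested 0 passed by limma, and the summed signal of all 8 on the array was 2208 to 2470 and 1658 to 2128. The part of other cells in the results was not tested.

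The other LPS arms hold arrays of their own, so the direction of the wild type genes could be read there. Most genes kept it. In IL-10-/- macrophages with LPS alone, where 6.82% of genes were called higher and 11.8% lower, 395 of the 436 wild type risers changed in the same direction (90.6%, beside 49.4% of all genes) and 247 were called (56.7%), while 10 were called opposite. Of the 488 wild type fallers, 463 went the same way (94.9%, beside 50.6%), 334 were called (68.4%) and 2 were called opposite. In wild type macrophages with LPS and IL-10 (6.77% called higher and 9.69% lower), 422 risers (96.8%, beside 40.3%) and 478 fallers (98%, beside 59.7%) kept their direction, 305 and 316 of them called, with 1 and 0 called opposite. In IL-6-/- macrophages, with 1 array at each time and no test, 7.23% of genes were higher and 10.4% lower by at least log2 1. There 419 risers (96.1%, beside 43.6%) and 475 fallers (97.3%, beside 56.4%) kept their direction.

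Single genes show the same. Fos changed by -5.83 in wild type, -6.35 in IL-10-/-, -4.70 with IL-10 and -5.71 in IL-6-/-, and Ccl5 by 7.96, 7.45, 7.82 and 8.28. Mmp13 rose by 4.37, 4.35 and 4.94 and was 4.17 higher in IL-6-/-. One exception was Chil1, which rose by 4.75 in wild type, 1.90 in IL-10-/- and 5.13 with IL-10, but whose IL-6-/- signals were 12.1 at 45 min and 16.9 at 180 min. By list, the median of the interferon response was 1.63 in wild type, 1.25 in IL-10-/-, 0.54 with IL-10 and 1.89 in IL-6-/-, beside medians of all genes of -0.15, -0.01, -0.12 and -0.11.

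Whether the time change itself differed between the genotypes was tested as a difference of differences, the change in IL-10-/- minus the change in wild type. The part of other differences between the cells of the genotypes was not tested. Il4ra and Bach1 rose in wild type and fell in IL-10-/-, and Selp, Ptpn1, Map3k8, Mt1 and Mt2 rose in wild type and were not called in IL-10-/-. Il1rn rose in both genotypes, by less in IL-10-/-. Dusp1 fell in both genotypes but further in IL-10-/-. Ccl17, Csf2, Il12b and Cav1 had the more positive change in IL-10-/-. Of 6070 genes, 80 differed (1.32%), 21 with a more positive and 59 with a more negative change in IL-10-/-. The 92 probe sets called became 41 to 65 when any 1 of the 8 arrays was left out (41 without replicate 2 at 180 min of wild type). The Il10 probe set gave 6512 and 5858 at 45 min and 1532 and 1512 at 180 min in IL-10-/- cells; where it lies relative to the deleted part is not known here, so it does not check the genotype. The comparison uses the same 4 wild type arrays as the contrast above.

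Il4ra had wild type signals of 1480.5 and 949 and then 13673 and 12978, and IL-10-/- signals of 1997 and 2437 and then 1006 and 1201. The 180 min arrays of the genotypes were far apart, and the difference of changes was -4.41 ± 0.26 (adjusted p = 8.75e-11). Bach1, the gene of a repressor of haem oxygenase, was similar at 45 min (3916 and 5096 in wild type, 4348 and 5477 in IL-10-/-) and parted at 180 min (8066 and 11541 in wild type, 307 and 334 in IL-10-/-; difference -4.84 ± 0.39, adjusted p = 4.22e-08). The call of the wild type rise of Bach1 alone (1.10) was lost without replicate 2 at 180 min (0.85) or replicate 1 at 45 min (0.91). That rise was also not called in the mean of all probe sets of the gene (0.84, limma, adjusted p = 0.175). Il1rn rose less in IL-10-/-, from 1266 and 1327 to 2940.5 and 3189 (difference -2.69 ± 0.24, adjusted p = 1.98e-07). Selp, which rose in wild type, stayed at 15.8 and 19.3 and then 39.1 and 31.2 (difference -4.04 ± 0.46).

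Dusp1 was at 24775 and 25027 at 45 min in IL-10-/- and at 1404 and 1170.4 at 180 min (difference -2.80 ± 0.37, adjusted p = 7.43e-05). Map3k8 and Ptpn1 differed by -2.63 ± 0.41 and -2.48 ± 0.38, and Mt1 and Mt2 by -2.64 and -2.19. Ifi202b gave 44.4 and 42.4 and then 9.5 and 54.2 in IL-10-/- (difference -3.97 ± 0.43). Sphk1, the sphingosine kinase gene, Akt2, a kinase gene of insulin signalling, and Rac3, a small GTPase gene, differed by -3.04, -3.24 and -3.12. For Ifi202b, Akt2 and Rac3 the genotypes had unlike signals already at 45 min, a difference that was not tested. At that time Ifi202b was at 594 and 459.5 in wild type, Akt2 at 575 and 204 in wild type and 964 and 854 in IL-10-/-, and Rac3 at 19.6 and 18.2 in wild type and 111 and 93 in IL-10-/-.

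In the other direction, Ccl17, a chemokine gene for CCR4-bearing T cells, had signals of 32.6 and 55.9 and then 46 and 42 in wild type, with overlapping groups, and 23.8 and 20.8 and then 1306 and 1423 in IL-10-/- (difference 4.28 ± 0.56, adjusted p = 6.47e-05). Csf2, which encodes GM-CSF, reached 6969 and 6419 at 180 min in IL-10-/- from 457 and 363 (difference 3.37 ± 0.59, adjusted p = 0.00259; 0.141 with 10 added to the signal in place of 50). Cav1, the caveolin gene, rose to 1545 and 1780.4 in wild type and 8375 and 7000.1 in IL-10-/- (difference 2.43 ± 0.35, adjusted p = 0.000237). Il12b reached 6056 and 6116 in IL-10-/- (difference 2.91 ± 0.65, adjusted p = 0.0233). Its call was lost without either 180 min array or replicate 1 at 45 min of wild type, and without any 1 of the 4 IL-10-/- arrays (adjusted p 0.0644 to 0.2). Il6 reached 26567 and 21767 in IL-10-/- but its difference of 2.98 ± 0.75 did not pass (adjusted p = 0.0523). Cited2, the gene of a CBP/p300-binding coactivator, fell in wild type and stayed level in IL-10-/- (5551 and 4805 and then 5495 and 5392; difference 2.47 ± 0.45).

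**Figure D5:**
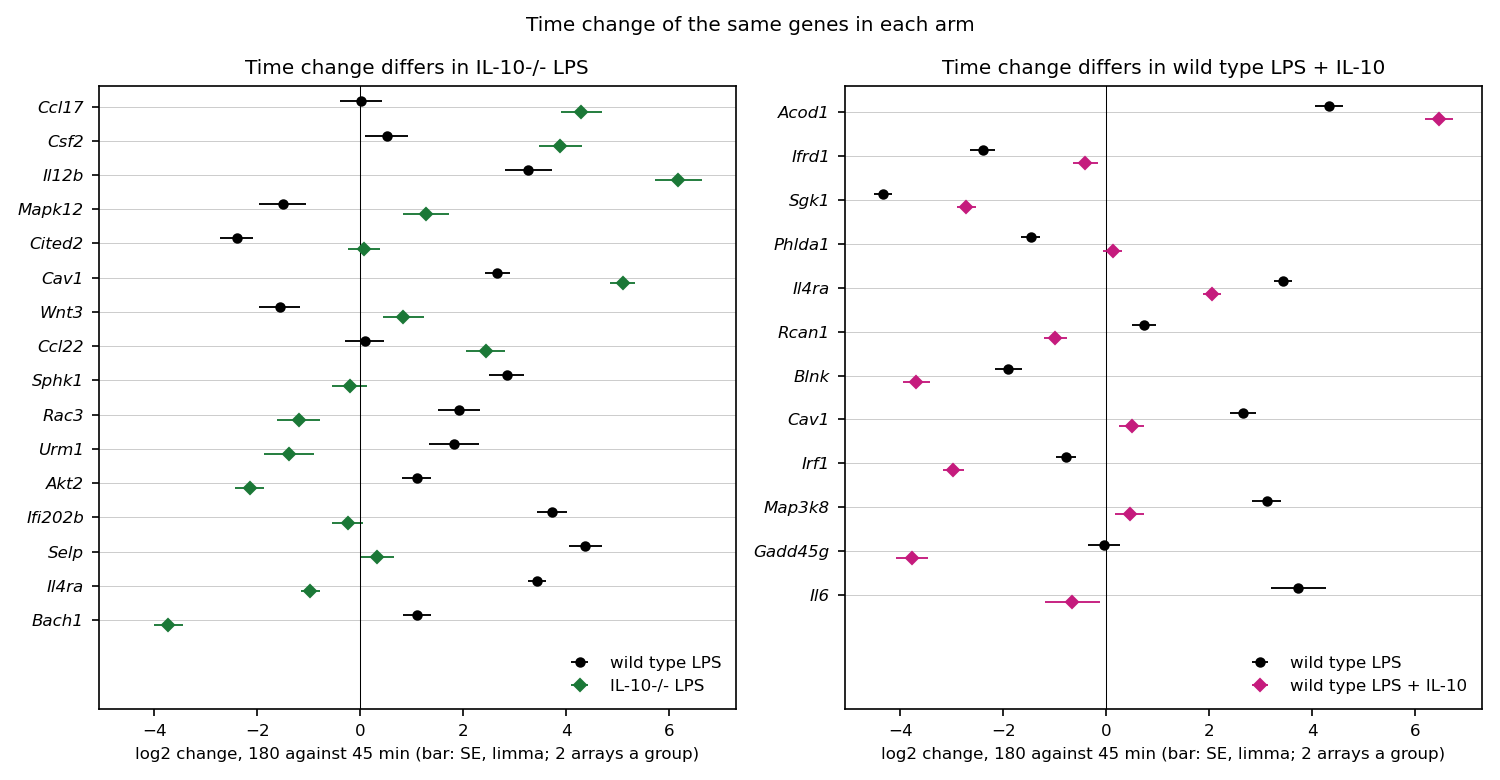
Log2 change from 45 to 180 min with its standard error (limma, 2 arrays a group) for named genes whose change differed from wild type LPS: left, 16 genes in IL-10-/- cells (green); right, 12 genes with added IL-10 (pink); black circles are wild type LPS. On the left Bach1 and Il4ra rise in black and fall in green, and Ccl17 and Ccl22 stay near 0 in black and rise in green; on the right Il6 rises in black only.

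With added IL-10 the change of 12 of 6070 genes differed (0.198%): 4 with a more positive and 8 with a more negative change. For several of them the arms had unlike signals already at 45 min, a difference that was not tested. The 12 calls became 6 without replicate 1 at 45 min of LPS with IL-10 and 7 without replicate 1 at 180 min of LPS alone. Gadd45g, a stress gene of the Gadd45 family, was at 555 and 266 with LPS and 4571 and 4713 with LPS and IL-10 at 45 min, and at 417 and 336 with LPS and 335 and 253 with LPS and IL-10 at 180 min (difference -3.74 ± 0.44, adjusted p = 0.000114). Irf1 started higher with IL-10 (11985 and 10875) and ended lower (1505 and 1332; difference -2.19 ± 0.29, adjusted p = 0.000323). Map3k8 was at 3332 and 3049.8 at 45 min with IL-10 and 4684 and 4097 at 180 min (difference -2.66 ± 0.41). When every probe set of each gene was averaged, 5 of the 12 differences did not pass in limma. Their adjusted p was 0.138 (Map3k8), 0.621 (Cav1), 0.834 (Acod1), 0.707 (Il4ra) and 0.126 (Blnk). Sgk1 was lower at 45 min with IL-10 (3737 and 3641) and was at 461 and 584 at 180 min (difference 1.62 ± 0.26).

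Il6 was at 2679 and 2126 at 45 min and 2234 and 996 at 180 min with IL-10, groups that overlap, against the rise in LPS alone (difference -4.39 ± 0.75, adjusted p = 0.00633). That call was lost without replicate 1 at 180 min of LPS alone (adjusted p = 0.0819), replicate 2 at 180 min (0.0811) or replicate 1 at 45 min (0.0677) of LPS with IL-10. Cav1, which rose with LPS alone, stayed at 138 and 224 and then 267 and 270.2 with IL-10 (difference -2.18 ± 0.35, adjusted p = 0.00329). Acod1 started lower with IL-10, at 408 and 271, and was at 33816 and 33365 at 180 min (difference 2.14 ± 0.38, adjusted p = 0.00704). It lost its call without replicate 1 at 180 min (adjusted p = 0.0551) or replicate 2 at 45 min (0.0592) of LPS alone, or replicate 2 at 45 min of LPS with IL-10 (0.0923). Cxcl10, whose change was 3.95 with LPS alone and 1.35 with IL-10, did not pass (difference -2.59 ± 0.55, adjusted p = 0.0519).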

How the data were processed

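The authors' deposited values are MAS5 signals, an intensity on a linear scale for each of 12488 probe sets, 1 array a sample; MAS5 is named per the submitters' processing notes, with its version not given in the sources used here. No scan date or batch is given, and arrays limit precision by their number. Of 12422 probe sets that were no controls, 8224 with a signal of at least 200 on 2 grouped arrays were tested. Log2(signal + 50) was fitted with limma 3.58.1 in R 4.3.3, with 1 mean per group (16 groups, 32 arrays, 16 residual degrees of freedom) and an intensity trend. A gene is its probe set with the highest mean, and names come from the platform table (10855 probe sets with 1 symbol, 396 with several, 1237 unlisted). Named genes were the 12 largest rises and falls whose groups did not overlap and whose higher mean was at least 500, up to 5 called members of each list in each direction, 13 set genes of which Ifnb1 and Tlr4 were not among those tested, and up to 8 genes in each direction of each difference. The 23 gene lists, the 6 marker lists and the members were chosen with earlier results of these data known. The fit was tested on simulated data. Promoters were 250 bases before the first RefSeq start (GRCm38.p6), searched on both strands. Alternatives changed the added constant, filter, scaling, trend, probe set choice, replicate block and arrays used.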

Additional observations from a re-analysis of the deposited data

Results flagged for a closer look

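The change from 45 to 180 min differed between IL-10-/- and wild type macrophages in the tested difference of differences for the named genes that follow, in log2 units and with limma's adjusted p under 0.05. The change was more negative in IL-10-/- for Chil1 (-2.85), Selp (-4.04), Cebpd (-1.45), Ptpn1 (-2.48), Dusp2 (-1.55), Dusp1 (-2.80), Map3k8 (-2.63), Il1rn (-2.69), Ifi202b (-3.97), Il4ra (-4.41), Bach1 (-4.84), Cdkn2d (-1.67), Mt2 (-2.19), Mt1 (-2.64), Il10 (-2.22), Akt2 (-3.24), Urm1 (-3.21), Rac3 (-3.12) and Sphk1 (-3.04). It was more positive for Il12b (2.91), Cited2 (2.47), Ccl17 (4.28), Csf2 (3.37), Mapk12 (2.78), Cav1 (2.43), Wnt3 (2.40) and Ccl22 (2.35). The fits with arrays left out that follow were read for 16 of these genes only. They were not read for Chil1, Cebpd, Ptpn1, Dusp2, Dusp1, Map3k8, Il1rn, Cdkn2d, Mt2, Mt1 and Il10. With any 1 of the 8 arrays left out in turn, the call was lost in 7 of 8 fits for Wnt3 (adjusted p 0.0767 to 0.215), Ccl22 (0.0503 to 0.183) and Il12b (0.0644 to 0.2), in 6 for Mapk12 (0.0522 to 0.183) and in 5 for Urm1 (0.055 to 0.165).

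With added IL-10 the change differed from that with LPS alone for 12 genes. It was more negative for Map3k8 (-2.66), Il6 (-4.39), Irf1 (-2.19), Il4ra (-1.38), Cav1 (-2.18), Gadd45g (-3.74), Blnk (-1.79) and Rcan1 (-1.72). It was more positive for Acod1 (2.14), Sgk1 (1.62), Phlda1 (1.59) and Ifrd1 (1.99). With 1 array left out, the call was lost in 7 of 8 fits for Il4ra (adjusted p 0.0608 to 0.214), Blnk (0.0836 to 0.299) and Rcan1 (0.0619 to 0.121), in 2 for Ifrd1 (0.0735 and 0.0798) and in 1 for Phlda1 (0.0693). Both comparisons use the 4 wild type LPS arrays.

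Among the 4 resting arrays, 1 signal of Zfp36l2 (4100.8) lay far below the others, and 1 signal of Il6 (223.8) far above. Chance sets apart about 1 in 20 such groups.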

How the results depend on the processing

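The count of probe sets called between 45 and 180 min, 1143, ranged from 728 to 806 when 1 of the 4 arrays was left out, that of the difference in IL-10-/-, 92, from 41 to 65, and that of the difference with added IL-10, 12, from 6 to 16. With 200 added to the signal the last count was 20. The other alternatives stayed within 1.5 times of these counts. Of 137 named genes called in wild type, 94 kept direction and call under every alternative run, 41 lost the call without 1 array and 24 under another setting; for the differences, 10 of 16 and 3 of 12 kept both. The change of Csf1r was 0.05 (limma, adjusted p = 0.943) as the mean of all its probe sets, against -0.55 from its brightest; the cause was not tested. With the replicate block the counts were 1336, 115 and 17. The labels do not say what a shared replicate number means, and the replicate differences at 45 and 180 min in wild type correlated at 0.191, so the numbers were not taken as a pairing. Of the 436 genes called higher and the 488 called lower, 322 and 302 changed by at least 2-fold, so changes under log2 1 were also among the calls. With 2 arrays a group, how many changes under log2 1 were missed was not tested. Folds from signals near 0 depend on the constant added.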
